A study of Mus musculus with 2 samples.

Results

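The 6 genes described here are best known from fetal tissue, and they were followed through the development of the mouse esophagus, stomach and gastroesophageal squamo-columnar junction (GE-SCJ), the border of both organs. The set holds 3 kinds of gene: Lin28b, the 3 Igf2bp genes (Igf2bp1, Igf2bp2 and Igf2bp3), and the 2 Hmga genes (Hmga1 and Hmga2). They were taken by name, as 6 of 19550 genes in the count table, and all 6 were in it. The data are counts of unique molecular identifiers (UMIs, 1 per captured RNA molecule) in 7808 single cells. They were made by 3′ sequencing of wild-type C57BL/6 mice from the esophagus, GE-SCJ and stomach at E15, E19, the pup at 2 days and the adult at 8 weeks. The labels give 6 mice at E15, 2 at E19, 2 pups and 3 adults, whereas the methods speak of cells combined from 3 mice. Mice were pooled under 1 tag for each region and stage, and all tags were sequenced as 1 library, so every group is a single pooled sample and no difference could be tested. Adult stomach cells are not analysed here, since no adult stomach tag was among the cells.

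LIN28B is an RNA-binding protein that blocks the maturation of let-7, a family of microRNAs that accumulate as tissues mature and repress RNAs that carry a matching site. The IGF2BP proteins bind, stabilise and transport target RNAs such as those of Igf2, H19, Actb and Myc, and the HMGA proteins bend AT-rich DNA and open chromatin. Most of these genes are used widely in the embryo, are low in most adult tissues, and are known targets of let-7.

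All 6 genes carried a let-7 site in the 3′ untranslated region of the GENCODE transcript examined, which is why their sites are shown first. The site searched for was CTACCTC, the complement of the let-7 seed at bases 2 to 8, on the transcript's own strand, and the longer form CTACCTCA, which contains it. From the RefSeq microRNA table on GRCm38.p6, 9 mature names of the let-7 family were taken, without a search for others. All 9 share that seed, printed in capitals in the 3 sequences below:
let-7a-5p: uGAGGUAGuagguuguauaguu
let-7g-5p: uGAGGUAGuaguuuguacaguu
miR-98-5p: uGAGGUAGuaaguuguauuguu
The first site after the stop codon of each gene is given 5′ to 3′ with the matching bases in capitals:
Lin28b: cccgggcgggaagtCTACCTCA
Igf2bp1: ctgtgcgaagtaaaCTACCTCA
Igf2bp2: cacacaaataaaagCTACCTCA
Igf2bp3: gcatttttactcaaCTACCTCA
Hmga1: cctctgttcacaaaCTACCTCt
Hmga2: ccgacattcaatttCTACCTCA
They lie on GRCm38 at chr10:45381022-45381043, chr11:95961778-95961799, chr16:22059473-22059494, chr6:49086787-49086808, chr17:27563278-27563299 and chr10:120364224-120364245, in the order of the list. Only the Hmga1 site is on the plus strand, and it is the only one of the 6 without the final A. The let-7a sequence shown is that of the Mirlet7a-1 hairpin on chr13:48538239-48538260, minus strand.

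Lin28b, Igf2bp1 and Hmga2 each held 4 sites, in untranslated regions of 4445, 6337 and 3014 bases, and Igf2bp2, Igf2bp3 and Hmga1 held 1 each, in 1784, 2119 and 1183 bases. Igf2bp1 had 3 of the longer form, Lin28b, Igf2bp2, Igf2bp3 and Hmga2 had 1 each, and Hmga1 had 0. Of 16308 genes with an annotated 3′ untranslated region, 10.1% held at least 1 CTACCTC, 3.53% held the longer form, and 12 genes held 4 or more CTACCTC. Longer regions hold more sites by length alone. Among regions at least as long as its own, a site was found in 33.7% for Lin28b, 45.4% for Igf2bp1, 25.4% for Hmga2 and 16.6% for Hmga1. A match of letters is a description of the transcript, and neither let-7 nor its binding was measured, because the chemistry captures polyadenylated RNA.

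On GRCm38 the genes span chr10:45376620-45486395 (Lin28b), chr11:95957163-96005940 (Igf2bp1), chr16:22059009-22163299 (Igf2bp2), chr6:49085223-49214957 (Igf2bp3), chr17:27556497-27563674 (Hmga1) and chr10:120361275-120476469 (Hmga2), all protein-coding and all on the minus strand but Hmga1. Hmga1 counts are uncertain. Of the 411 windows of 90 bases in the last 500 bases of its transcript, 78.1% are also found in Hmga1b, a near-identical copy on chr11:120762794-120764419, and how reads that match both were counted is not given in the sources used here. The table gives 62 UMIs to Hmga1b. Genes of the count table that lie on the other strand overlap Igf2bp3, Hmga1 and Hmga2, and a gene outside that table overlaps Igf2bp1. Whether the counting used strand is not given in the sources used here.

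The level of a gene is its CPM, its UMIs in a group per 1000000 UMIs of that group, and the parentheses hold the exact 95% Poisson interval. Shares of cells have exact 95% Clopper-Pearson intervals, and log2 ratios were taken after adding 1 UMI to each sum, with an exact 95% interval conditional on the total. These intervals cover counting error only, not the spread between mice. Cell types follow the 9 labels that the authors deposited, and the 11 groups of region and stage held 143 to 1403 cells and 2302227 to 20070615 UMIs. Each label had the highest summed level of its own marker list, except that the list for mesothelium was at 1583 CPM in the smaller stromal label and at 886 CPM in the smaller squamous label, which had 1457 CPM of squamous markers and 1 of 4 of those at 0. In the values that follow, squamous and stromal stand for the larger labels alone. Pup cells of the stroma and smooth muscle were shallower than prenatal ones, with a median of 4258 UMIs against 10087 at E15 for stroma and 4595 against 12171 for smooth muscle, while columnar cells had 24893 at E15 and 26581 in the pup. Some cells resembled the other side of birth more than their own stage, with most of their 15 nearest neighbours there, and these were 23 at E15, 56 at E19, 143 of 1573 in the pup and 41 of 478 in the adult.

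The members covered a wide range of abundance. Igf2bp2 had 11439 UMIs and was detected in 59.6% of all cells, Hmga2 had 8365 UMIs in 33.3%, and Igf2bp3 had 6951 in 45.0%. Igf2bp1 had 3448 UMIs in 26.7% of cells and Hmga1 had 944 in 8.59%. Lin28b was the rarest, with 61 UMIs in 49 cells. Over all cells, Hmga2 stood at 143 CPM (139 to 148) at E15, then 69.4 (67.1 to 71.8) at E19, then 35.6 (33.3 to 38.0) in the pup, then 21.3 (17.8 to 25.3) in the adult. Igf2bp1 stood at 60.9 CPM at E15, then 28.6 at E19, then 12.8 in the pup, then 8.88 in the adult, and Igf2bp2 at 133 CPM at E15, then 109 at E19, then 89.2 in the pup, then 31.2 in the adult. Both were ordered by age, with the smaller spread for Igf2bp2. These sums mix cell types whose shares differ between stages, so the levels below are given within labels.

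Lin28b, the inhibitor of let-7 maturation, was seen in prenatal cells alone. It stood at 1.05 CPM (0.704 to 1.51) at E15 and 0.660 CPM (0.451 to 0.931) at E19 over all cells. No UMI was found in 1573 pup cells or in 478 adult cells, and taking 3 counts as the limit, this allows a share of cells with a UMI of up to 0.191% and 0.628%. Of its 61 UMIs, 45.9% lay in prenatal immune cells, which held 2.87% of all UMIs. Immune cells reached 6.88 CPM (2.77 to 14.2) at E15 and 10.1 CPM (6.25 to 15.4) at E19, and 86 pup immune cells held none, where 3 counts would be 4.94 CPM. The E15 and E19 levels in immune cells differed by less than their intervals, and the depth of the pup immune cells could not show a level below that limit.

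Among the other labels, neural cells had 4.04 CPM (1.85 to 7.67) of Lin28b at E15 and columnar cells 1.29 CPM (0.518 to 2.66). Over all stages, endothelial cells held 4.92% of its UMIs against 1.65% of all UMIs, and the smaller stromal label 3.28% against 1.24%. Stromal cells at E15 had 0.175 CPM (0.0213 to 0.634), and squamous cells at E15 had 0 CPM (0 UMIs in 112 cells, 3 counts would be 1.57 CPM). The highest levels of the 55 groups with at least 20 cells were therefore in immune cells of the E19 esophagus and GE-SCJ, at 15.3 CPM (4.16 to 39.1) and 12.6 CPM (6.05 to 23.2), but each rests on at most 10 UMIs and every neighbour in the order of levels had an overlapping interval. In 37 of these groups the gene was at 0.

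The 20 prenatal immune cells with a Lin28b UMI could be set beside the 242 without one. Their median depth was 15752 UMIs against 9021.5, and 80% against 52.9% were placed in S or G2M by the deposited cell cycle call. Deeper cells have a better chance to show a rare RNA, so this is a description with no test. The immune markers Ptprc, Tyrobp and Fcer1g summed to 2435 CPM in the cells with Lin28b, which all 20 showed, and to 3609 CPM in the others. Hemoglobin genes, the markers of red cells, summed to 798 CPM in the cells with Lin28b and 10319 CPM in those without. A hemoglobin UMI was found in 19 of the 20 and in 215 of the 242, so the summed level was lower where Lin28b was seen but the share of cells was not. Fibroblast markers summed to 1362 CPM in the cells with Lin28b and 862 CPM in the others, and columnar markers to 341 and 769.8 CPM. In the cells with Lin28b against the others, Hmga1 was at 55.1 and 26.9 CPM, Igf2bp3 at 108 and 90.5 CPM, Igf2bp2 at 28.9 and 14.4 CPM and Igf2bp1 at 31.5 and 30.2 CPM. Hmga2 was at 2.62 and 18.8 CPM. No interval was taken for these levels, and the 20 cells held few UMIs of the members, fewest of Hmga2, so no direction is read from them. Lin28a, the close relative of Lin28b, had 6 UMIs in 4 cells of the whole table, all of them prenatal.

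Igf2bp1, the family member most restricted to early stages, was highest in E15 columnar and neural cells. In columnar cells of the stomach it stood at 99.97 CPM (90.2 to 110.5) at E15, then 40.1 (36.2 to 44.3) at E19, then 13.0 (10.96 to 15.2) in the pup. In columnar cells of the GE-SCJ the levels were 80.1 CPM at E15, then 38.7 at E19, then 14.9 in the pup. The 3 stages did not overlap in either region, and the E15 over pup log2 ratio was 2.94 (2.67 to 3.22) in the stomach and 2.43 (2.04 to 2.81) in the GE-SCJ.

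In squamous cells, Igf2bp1 stood at 62.1 CPM (47.5 to 79.8) at E15, then 18.7 (12.7 to 26.6) at E19, then 14.01 (6.05 to 27.6) in the pup, then 2.49 (1.08 to 4.91) in the adult in the esophagus. In the GE-SCJ the squamous levels were 61.9 CPM at E15, then 44.7 at E19, then 22.9 in the pup, then 1.94 in the adult. Each step was downward with age, but the intervals of E19 and the pup overlapped in both regions, as did those of E15 and E19 in the GE-SCJ. Neural cells, which include the enteric nerve cells and glia of the gut wall, had 93.8 CPM (74.2 to 117) in the esophagus, 78.9 CPM (55.3 to 109) in the GE-SCJ and 88.3 CPM (70.3 to 109) in the stomach at E15. The neural levels therefore lay within the interval of E15 stomach columnar cells or overlapped it. In the pup 2 UMIs of Igf2bp1 were found in 59 neural cells, a level of 7.29 CPM (0.883 to 26.3).

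Stromal cells had 43.8 CPM (37.4 to 51.0) at E15, then 16.6 (13.7 to 19.9) at E19, then 9.56 (3.51 to 20.8) in the pup of Igf2bp1 in the esophagus. They had 50.4 CPM at E15, then 25.5 at E19, then 10.2 in the pup in the GE-SCJ and 60.2 CPM at E15, then 27.1 at E19, then 20.2 in the pup in the stomach. Smooth muscle of the stomach had 49.0 CPM (38.9 to 60.9) at E15, then 13.5 (8.80 to 19.7) at E19, then 5.37 (1.11 to 15.7) in the pup, and that of the GE-SCJ had 41.0 CPM at E15, then 14.5 at E19, then 3.51 in the pup. The pup level in GE-SCJ smooth muscle rests on 2 UMIs, and the same gene had 71 UMIs there at E15.

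Igf2bp2, the family member that many adult tissues also express, was close to level from E15 to the pup in stromal cells of the esophagus and GE-SCJ. Stromal cells had 141 CPM (129 to 153) at E15, then 113 (105 to 121) at E19, then 137 (109.6 to 169) in the pup in the esophagus, and the E15 over pup log2 ratio was 0.03 (-0.30 to 0.37). In the GE-SCJ the stromal levels were 151 CPM at E15, then 118 at E19, then 129.6 in the pup, with a log2 ratio of 0.19 (-0.22 to 0.63). In the stomach they were 143 CPM at E15, then 122 at E19, then 98.5 in the pup, with a log2 ratio of 0.50 (0.06 to 0.98). The 3 regions thus ran from no visible difference to a modest one, and only the stomach interval lay above 0. In the adult, the 31 stromal cells of the esophagus held 3 UMIs of Igf2bp2, or 18.6 CPM (3.83 to 54.3), with an E15 over adult log2 ratio of 2.51 (1.15 to 4.39). Neural cells had an E15 over pup log2 ratio of 0.50 (-0.38 to 1.54) in the esophagus and 2.56 (0.67 to 5.62) in the stomach, where the pup held 1 UMI.

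In smooth muscle the E15 over pup log2 ratio of Igf2bp2 was 0.04 (-0.40 to 0.49) in the GE-SCJ, 0.04 (-0.38 to 0.48) in the stomach and 0.57 (-0.61 to 2.05) in the esophagus, where the pup held 5 UMIs. Fibroblast markers in smooth muscle cells summed to 2627 CPM at E15 and 6109 in the pup in the GE-SCJ, and to 1873 and 5937 CPM in the stomach. Smooth muscle markers went from 20678 to 15328 CPM and from 23229.5 to 13820.5 CPM, and the part of this in the ratios was not tested. In the GE-SCJ and stomach the ratio of Igf2bp1 was 2.98 (1.38 to 5.29) and 2.79 (1.38 to 4.70), so the intervals of the family members lay apart in both regions. Columnar cells of the stomach had 187 CPM (173 to 201) at E15, then 126 (119 to 133) at E19, then 91.8 (86.3 to 97.5) in the pup of Igf2bp2, and those of the GE-SCJ 177 CPM at E15, then 135 at E19, then 91.7 in the pup. Here the stages did not overlap in either region, and the log2 ratio was 1.03 (0.89 to 1.16) and 0.95 (0.73 to 1.16). Squamous cells had 112 CPM (92.02 to 135) at E15, then 68.2 (56.2 to 82.0) at E19, then 57.8 (39.8 to 81.2) in the pup, then 9.35 (6.31 to 13.3) in the adult in the esophagus. The adult squamous level in the GE-SCJ was 6.46 CPM (3.10 to 11.9), below the pup level of 58.0 CPM (41.0 to 79.6).

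Immune cells were the exception to the wide use of Igf2bp2. They stood at 17.3 CPM (13.3 to 22.0) over all stages and held 0.568% of the gene's UMIs against 3.49% of all UMIs. In all 8 immune groups with at least 20 cells the level lay between 2.44 and 22.9 CPM. Neural cells, for comparison, were at 123 CPM (112 to 134).

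Igf2bp3, which like Igf2bp1 is known mainly from fetal and tumor tissue, was high in columnar cells and, unlike its relatives, in immune cells. Columnar cells of the stomach had 125 CPM (114 to 137) at E15, then 91.5 (85.6 to 97.8) at E19, then 46.2 (42.4 to 50.4) in the pup, and those of the GE-SCJ 143 CPM at E15, then 97.7 at E19, then 46.1 in the pup. Immune cells had 100.2 CPM (81.7 to 122) at E15, then 88.9 (76.5 to 103) at E19, then 77.4 (56.8 to 103) in the pup. The columnar stages did not overlap, whereas the 3 immune intervals did. The E15 over pup log2 ratio was 1.44 (1.26 to 1.62) in stomach columnar cells, 1.63 (1.37 to 1.89) in GE-SCJ columnar cells. Over few UMIs, it was 0.75 (-0.23 to 1.83) in GE-SCJ immune cells and -0.56 (-1.51 to 0.37) in those of the esophagus, on opposite sides of 0 with both intervals spanning it.

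In the stroma, Igf2bp3 was at 58.0 CPM (50.6 to 66.2) at E15, then 36.5 (32.2 to 41.3) at E19, then 36.6 (23.2 to 55.0) in the pup in the esophagus. The GE-SCJ had 76.7 CPM at E15, then 57.3 at E19, then 76.2 in the pup and the stomach 88.3 CPM at E15, then 60.5 at E19, then 33.6 in the pup. The log2 ratio of E15 over pup was 0.61 (-0.002 to 1.28) in the esophagus, -0.03 (-0.57 to 0.55) in the GE-SCJ and 1.30 (0.58 to 2.13) in the stomach, where the pup level rests on 15 UMIs. The stomach and GE-SCJ intervals did not overlap, so the stromal regions did not share 1 pattern for this gene. Squamous cells had 96.7 CPM (78.2 to 118) at E15, then 54.3 (43.7 to 66.8) at E19, then 56.1 (38.3 to 79.1) in the pup, then 6.85 (4.296 to 10.4) in the adult in the esophagus, and the pup and adult intervals did not overlap.

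Set against each other within cell types, the 3 Igf2bp genes did not divide in the same way in all of them. Since every molecule is counted once at its 3′ end, these are shares of the family's captured UMIs and not of protein. Of 498 family UMIs in immune cells, Igf2bp3 took 67.5% (63.2 to 71.6), Igf2bp1 19.5% (16.1 to 23.2) and Igf2bp2 13.1% (10.2 to 16.3). In stromal cells Igf2bp2 took 58.2% (57.0 to 59.3) and Igf2bp3 27.0% (25.9 to 28.0). In columnar cells the shares of Igf2bp2, Igf2bp3 and Igf2bp1 were 52.0%, 33.0% and 15.03%. Igf2bp2 was thus the largest member in columnar, stromal, smooth muscle and neural cells, and Igf2bp3 was the largest in immune cells. In squamous cells Igf2bp2 at 43.3% (40.3 to 46.3) and Igf2bp3 at 37.9% (35.0 to 40.8) overlapped, and in endothelial cells the shares of 31.0%, 32.3% and 36.7% had overlapping intervals. The share of Igf2bp1 in columnar cells was 23.1% (21.3 to 24.9) at E15, 14.97% (13.9 to 16.0) at E19 and 9.05% (8.04 to 10.1) in the pup. In smooth muscle it was 18.4%, 8.21% and 2.42% (0.789 to 5.55). The share of Igf2bp2 in columnar cells was 45.2%, 49.3% and 60.5% over the same stages, so Igf2bp2 made up more of the family and Igf2bp1 less at each later stage, while the level of both was lower.

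**Figure D1:**
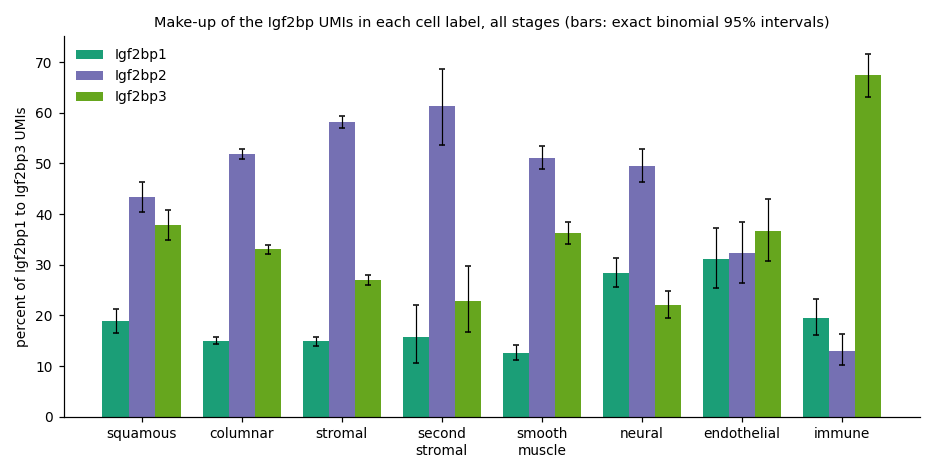
Share of the summed Igf2bp1, Igf2bp2 and Igf2bp3 UMIs (percent) taken by each gene in each cell label over all regions and stages, 1 pooled value per bar segment and no replicates. Igf2bp3 takes 67.5% in immune cells and Igf2bp2 takes 58.2% in stromal cells.

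Hmga1, a chromatin protein of dividing and undifferentiated cells, was highest in groups of immune and epithelial cells. Columnar cells of the stomach had 33.4 CPM (27.9 to 39.7) at E15, then 13.2 (10.99 to 15.7) at E19, then 5.60 (4.32 to 7.16) in the pup, and those of the GE-SCJ 24.9 CPM at E15, then 11.03 at E19, then 5.86 in the pup. Squamous cells of the esophagus had 31.6 CPM (21.4 to 44.8) at E15, then 21.1 (14.7 to 29.4) at E19, then 36.8 (22.8 to 56.2) in the pup, then 10.6 (7.34 to 14.8) in the adult. The columnar levels were ordered by age, while in the squamous cells the pup level was as high as that at E15 and the adult level was lower. The E15 over pup log2 ratio was 2.56 (2.12 to 3.02) in stomach columnar cells and -0.24 (-1.07 to 0.61) in esophageal squamous cells. In the GE-SCJ the columnar ratio was 2.10 (1.43 to 2.76) and the squamous ratio 0.57 (-0.20 to 1.37).

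In the stroma, Hmga1 did not exceed 5.24 CPM in any region from E15 to the pup, and stromal cells held 6.14% of its UMIs against 30.1% of all UMIs. Neural cells held 4.34% of its UMIs against 3.47% of all, with 14.4 to 17.5 CPM at E15, and endothelial cells 2.01% against 1.65%. The log2 ratio of columnar over stromal cells at E15 was 2.61 (1.94 to 3.35) in the stomach and 3.43 (2.34 to 4.67) in the GE-SCJ. That of squamous over stromal cells in the esophagus was 3.96 (2.81 to 5.28). Immune cells had 17.7 CPM (10.5 to 28.0) at E15, then 36.5 (28.8 to 45.7) at E19, then 6.58 (1.79 to 16.9) in the pup, with 49.2 CPM (35.0 to 67.3) in the GE-SCJ at E19, the highest level of any group for this gene, close to the 48.7 CPM of GE-SCJ squamous cells at E15. The immune E15 over E19 log2 ratio was -0.68 (-1.84 to 0.35) in the GE-SCJ and -0.67 (-2.001 to 0.48) in the stomach, both with intervals that span 0.

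Hmga2, the other HMGA gene and one of the best known let-7 targets, reached the highest level of any member. Columnar cells of the stomach had 367 CPM (348 to 387) at E15, then 152 (144 to 159.9) at E19, then 43.8 (40.0 to 47.8) in the pup. Columnar cells of the GE-SCJ had 277 CPM (249.6 to 307) at E15, then 133 (125 to 142) at E19, then 41.4 (37.1 to 46.0) in the pup. The 3 stages lay far apart in both regions, and the log2 ratio of E15 over pup was 3.07 (2.92 to 3.22) in the stomach, an 8.38-fold difference, and 2.74 (2.53 to 2.96) in the GE-SCJ. Both E15 columnar groups headed the order of the 55 groups, and the interval of neither overlapped the next below it. Columnar cells held 62.2% of the UMIs of Hmga2 and 40.1% of all UMIs.

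Squamous cells had 87.5 CPM (70.0 to 108) at E15, then 24.7 (17.8 to 33.6) at E19, then 7.01 (1.91 to 17.9) in the pup, then 4.05 (2.16 to 6.93) in the adult of Hmga2 in the esophagus and 140.5 CPM at E15, then 38.3 at E19, then 18.3 in the pup, then 4.52 in the adult in the GE-SCJ. At every stage that could be compared, they were below columnar cells. The log2 ratio of esophageal squamous over stomach columnar cells was -2.05 (-2.38 to -1.74) at E15, -2.58 (-3.06 to -2.14) at E19 and -2.32 (-3.95 to -1.09) in the pup. These contrasts join a difference of organ with one of cell type, and within the GE-SCJ the squamous over columnar ratio was -0.97 (-1.28 to -0.68), -1.72 (-2.46 to -1.07) and -1.06 (-1.99 to -0.27). Hmga1 took the other direction in the pup, with a squamous over columnar ratio of 2.76 (1.99 to 3.48) between the organs and 2.49 (1.69 to 3.24) within the GE-SCJ. Among all genes compared between esophageal squamous and stomach columnar cells, 8.45% were past a log2 ratio of 1 towards columnar cells at E15, 12.2% were at E19, and 19% in the pup, while 8.68%, 10.4% and 17.6% were past it towards squamous cells. Of the 5 members with at least 50 UMIs, Hmga2 alone was past it at E15, Hmga2 and Igf2bp1 at E19, and Hmga2 towards columnar and Hmga1 towards squamous cells in the pup.

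**Figure D2:**
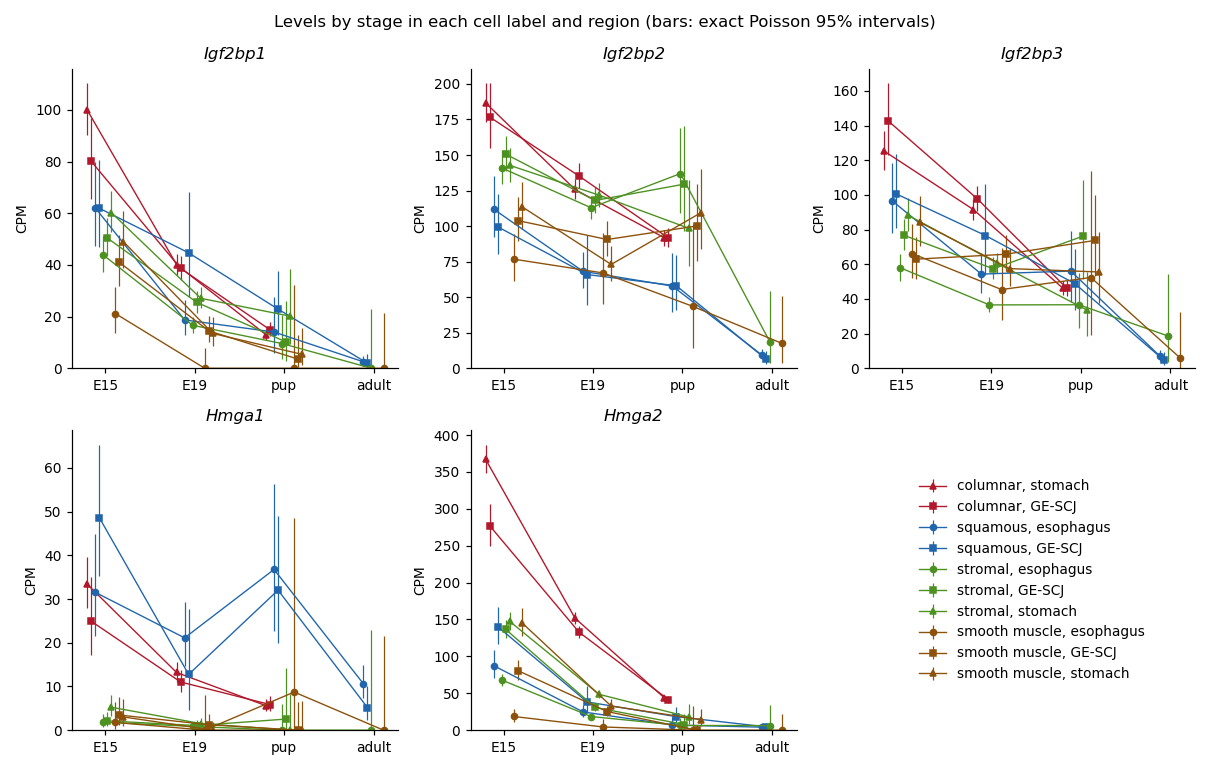
Level (CPM) of Igf2bp1, Igf2bp2, Igf2bp3, Hmga1 and Hmga2 by stage in columnar, squamous, stromal and smooth muscle cells, 1 line per region. Bars are exact 95% Poisson intervals for counting error, with 1 pooled sample per point. Hmga2 in stomach columnar cells runs from 367 to 43.8 CPM between E15 and the pup, while Igf2bp2 in esophageal stroma lies between 113 and 141 CPM over those stages and at 18.6 CPM in the adult.

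The question of which of these genes are lower in the pup than at E15, and in which cell types, was put to all members by the same rule. This contrast joins the step from E15 to E19 with that across birth. For Igf2bp1 the E19 over pup log2 ratio was 1.62 (1.35 to 1.91) in stomach columnar cells. It was 0.29 (-0.81 to 1.54) in esophageal squamous cells, from 31 and 8 UMIs. A gene counted as past the threshold where the absolute log2 ratio of E15 over pup was at least 1, for labels with at least 20 cells at each stage and genes whose sums together reached 50 UMIs. Over 14 pairs of groups, 48 of 84 member ratios had enough UMIs, 28 of these were past the threshold towards E15 and 0 towards the pup. Igf2bp1 was past it in 11 of 11 and Hmga2 in 9 of 9. Igf2bp3 was past it in 4 of 12, Igf2bp2 in 2 of 12, Hmga1 in 2 of 4 and Lin28b, with few UMIs, had no ratio to count. The members thus ranged from genes that were lower in the pup wherever they could be counted to genes that were lower in some cell types alone. The limit of 50 UMIs could be met through E15 alone, as for Hmga2 in GE-SCJ smooth muscle, with 140 UMIs and 0 in the pup. Among the groups under it, Hmga2 in esophageal immune cells had a ratio of -0.51 (-2.51 to 1.36), from 4 and 6 UMIs. The other Hmga2 groups under it had 0 UMIs in the pup. The counts are therefore a description of the groups that met the limit.

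The background was not flat, since many genes were higher at E15. In stomach columnar cells 20.9% of all genes with enough UMIs were past the threshold towards E15, 9.32% were past it towards the pup, and the median of all was 0.38, while 5 of 5 members were past it towards E15. Igf2bp2 was so by a narrow margin, at 1.03 (0.89 to 1.16), and was under it when CPM were averaged cell by cell, at 0.88, and within S or G2M cells, at 0.65 (0.43 to 0.87). In GE-SCJ columnar cells 4 of 5 members were past it towards E15, beside 21.8% of all genes, with 8.81% of all genes towards the pup. Among squamous cells the members past it were 2 of 5 in the esophagus beside 14.7% of all genes, and 3 of 5 in the GE-SCJ beside 12.9%. Towards the pup there were 4.14% and 4.15% of all genes. Columnar cells therefore had both the most members and the highest background.

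In the stroma, 2 of 4 members were past it in the esophagus beside 12.9% of all genes, 2 of 4 in the GE-SCJ beside 13.7% and 3 of 4 in the stomach beside 11.3%. Towards the pup there were 9.91%, 9.43% and 8.37% of all genes in the same order. In smooth muscle these were 0 of 2 in the esophagus beside 12.5%, 2 of 4 in the GE-SCJ beside 12.4% and 2 of 4 in the stomach beside 13.3%, with 9.23%, 11.4% and 10.9% towards the pup. Neural cells had 1 of 3 in the esophagus beside 19.8% and 2 of 3 in the stomach beside 17.5%, with 12.1% and 11.5% towards the pup, and the pup stomach group held 20 cells. In immune cells of the esophagus and GE-SCJ no member reached 50 UMIs, while 6.05% and 9.6% of all genes were past it towards E15 and 9.25% and 11.2% towards the pup. In every one of the stromal groups the members past it included Igf2bp1 and Hmga2. The esophageal smooth muscle count had no ratio for those genes, because both stages together held fewer than 50 UMIs of each, with 24 and 21 at E15 and 0 in its 22 pup cells. Where the pup sum was 0, a gene was counted at its lower bound.

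The stromal log2 ratio of Hmga2 was 3.10 (1.86 to 4.73) in the esophagus, 3.75 (2.39 to 5.63) in the GE-SCJ and 2.87 (1.94 to 4.01) in the stomach. Smooth muscle of the GE-SCJ had 140 UMIs of Hmga2 at E15 and 0 in 119 pup cells, so the E15 level was at least 15.3-fold higher when 3 UMIs over the pup group are taken as the floor. Much of the stromal difference was in place before birth: the E15 over E19 log2 ratio stood at 1.87 (1.56 to 2.19), 2.15 (1.90 to 2.40) and 1.60 (1.40 to 1.80) in the 3 regions. In stomach columnar cells the E15 over E19 ratio of Hmga2 was 1.27 (1.17 to 1.38), below all stromal ones, that of Igf2bp1 was 1.32 (1.11 to 1.52), and those of Igf2bp2 and Igf2bp3 were 0.57 (0.44 to 0.71) and 0.45 (0.29 to 0.62).

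**Figure D3:**
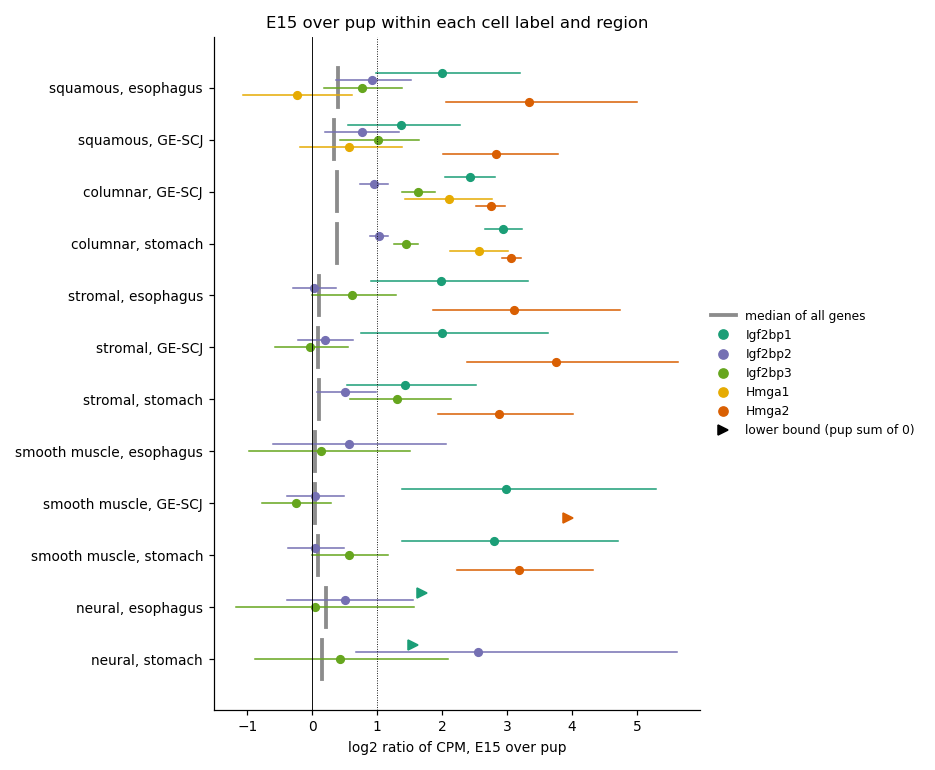
Log2 ratio of E15 over pup for each member by cell label and region, with exact 95% intervals for counting error, triangles for lower bounds where the pup sum is 0 and gray marks for the median of all genes. Hmga2 and Igf2bp1 lie to the right of 1 in all groups with enough UMIs, whereas Igf2bp2 in stroma lies between 0.03 and 0.50.

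The other axis of the design is the region. Hmga2 was lower in the mesenchyme of the esophagus than in that of the stomach. Stromal cells at E15 had 68.0 CPM (60.0 to 76.8) in the esophagus, 137 CPM (125 to 149) in the GE-SCJ and 147 CPM (136 to 160.2) in the stomach. Smooth muscle at E15 had 18.5 CPM (11.5 to 28.3), 80.8 CPM (68.0 to 95.4) and 146 CPM (128 to 165) in the same order. At E15 the stroma of the GE-SCJ lay with that of the stomach, while its smooth muscle lay between both organs and apart from each. At E19 stromal cells had 18.5 CPM (15.4 to 22.0), 30.8 CPM (26.4 to 35.7) and 48.5 CPM (43.4 to 54.2), and smooth muscle 4.32 CPM (0.524 to 15.6), 25.2 CPM (19.3 to 32.4) and 32.6 CPM (25.1 to 41.7). There the stroma of the GE-SCJ lay between both organs and apart from each, while its smooth muscle overlapped that of the stomach.

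The log2 ratio of esophagus over stomach for Hmga2 was -1.11 (-1.33 to -0.90) in stroma and -2.92 (-3.62 to -2.28) in smooth muscle at E15. At E19 it was -1.39 (-1.69 to -1.09) and -2.35 (-4.67 to -0.74), the last from 2 esophageal UMIs. GE-SCJ over stomach was -0.11 (-0.28 to 0.06) in stroma and -0.85 (-1.16 to -0.54) in smooth muscle at E15, and -0.65 (-0.93 to -0.39) and -0.37 (-0.90 to 0.16) at E19. The esophagus was below the stomach for Hmga2 at both prenatal stages, and in the pup the stromal ratio of -1.34 (-3.27 to 0.39) had an interval that spans 0.

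The other members differed less between the organs. In E15 stroma the esophagus over stomach ratio was -0.02 (-0.19 to 0.16) for Igf2bp2, -0.46 (-0.75 to -0.16) for Igf2bp1 and -0.60 (-0.85 to -0.35) for Igf2bp3. Among all genes in this contrast, 3.27% were past a log2 ratio of 1 towards the stomach and 2.9% towards the esophagus, and of the 4 members with enough UMIs Hmga2 was the 1 past it. In E15 smooth muscle 5.27% of all genes were past it towards the stomach and 3.02% towards the esophagus, with Igf2bp1, at -1.17 (-1.88 to -0.51), and Hmga2 as the members. The median ratio of all genes was -0.12 in stroma and -0.13 in smooth muscle, so the contrasts were close to centred. Neural cells, which also lie in the wall of each organ, had no such order for Hmga2: their E15 levels were 46.9, 41.7 and 52.1 CPM from esophagus to stomach, and the esophagus over stomach ratio was -0.14 (-0.78 to 0.48).

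Columnar cells were compared between the GE-SCJ and the stomach. The GE-SCJ over stomach ratio of Hmga2 was -0.40 (-0.57 to -0.24) at E15, -0.19 (-0.31 to -0.07) at E19 and -0.08 (-0.28 to 0.12) in the pup. The prenatal intervals lay below 0 and that of the pup spans it. For Igf2bp2 the ratio was -0.07 (-0.29 to 0.14), 0.10 (-0.02 to 0.23) and -0.001 (-0.14 to 0.14), with 0 inside each interval.

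**Figure D4:**
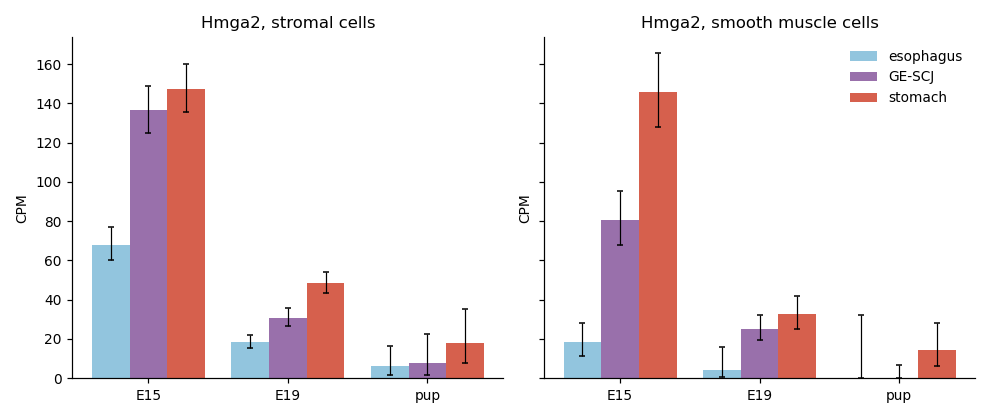
Level of Hmga2 (CPM, linear scale from 0) in stromal and smooth muscle cells of the esophagus, GE-SCJ and stomach at E15, E19 and pup, 1 pooled sample per bar with exact 95% Poisson intervals. At E15 the esophagus is lowest in both cell types, at 68.0 and 18.5 CPM against 147 and 146 CPM in the stomach.

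Shares of cells with a UMI depend on depth, so each cell was thinned to 5000 UMIs and shallower cells were left out. For Hmga2 in columnar cells, 72.9% (66.1 to 78.9) of cells had a UMI at E15, 41.8% (38.0 to 45.8) at E19 and 17.2% (14.4 to 20.4) in the pup. Without thinning these were 93.6%, 85.9% and 56.4%. Immune cells, taken as the reference, had 4.48% (0.933 to 12.5), 8.73% (4.44 to 15.1) and 1.72% (0.0436 to 9.24) after thinning. Their unthinned median depths were 11504, 8891.5 and 5935 UMIs. The reference is not free of Hmga2, since the immune groups ran from 0 CPM in the pup GE-SCJ to 26.3 CPM (17.3 to 38.2) in the E19 stomach. The columnar shares lay above the immune shares at each stage.

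For stromal cells the Hmga2 share was 33.3% (30.3 to 36.3) at E15, 12.1% (10.6 to 13.6) at E19 and 2.73% (0.566 to 7.76) in the pup, where 201 cells were too shallow and 110 remained. The pup share overlapped that of immune cells and could not be told apart from it. In stomach columnar cells the share with Igf2bp1 was 28.8% (21.4 to 37.1) at E15 and 5.28% (3.16 to 8.21) in the pup, and that with Igf2bp2 was 58.3% (49.6 to 66.6) and 37.5% (32.4 to 42.9). Neural cells at E15 had Igf2bp1 in 33.7% (27.1 to 40.8) of cells, against 7.46% (2.47 to 16.6) of immune cells. Igf2bp3 is not suited to this reference, since immune cells themselves showed it in 46.3% (34.0 to 58.9) of cells at E15, close to the 49.7% (42.6 to 56.9) of columnar cells.

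Cell by cell, the level of Hmga2 in stomach columnar cells was spread over most cells at E15. The median cell held 8 UMIs at E15 with a range of 0 to 34, 3 at E19 with up to 26, and 1 in the pup with up to 11. The top 10% of cells, ranked by their UMIs for this gene, held 27.9%, 29.9% and 39.8% of them. The lower pup level was therefore seen in the median cell too. In E15 stomach stroma the median was 1 UMI and the highest 22, and the same fraction of cells held 40.7%. For Igf2bp2 in stomach columnar cells the median went from 4 UMIs at E15 to 3 at E19 and 2 in the pup.

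The share of cells that the deposited call places in S or G2M was lower at each later stage, at 69.8%, 46.5% and 15.2% of columnar cells and 46.2%, 33.0% and 4.502% of stromal cells, so the members were compared between phases. Hmga1 was higher in S or G2M than in G1 columnar cells, with a log2 ratio of 0.81 (0.18 to 1.4995) at E15, 1.59 (1.12 to 2.09) at E19 and 2.15 (1.60 to 2.70) in the pup. In squamous cells the ratio was 0.13 (-0.55 to 0.81) at E15, 0.68 (-0.29 to 1.61) at E19, 0.04 (-0.95 to 0.97) in the pup and 0.43 (-0.60 to 1.39) in the adult. Immune cells at E19 had 1.38 (0.45 to 2.45). The tie of Hmga1 to phase was thus seen in columnar cells and in E19 immune cells. In squamous cells every interval spans 0, but all of these ratios except that at E15 rest on fewer than 50 UMIs. At E15 the squamous and columnar intervals overlapped. From fewer than 50 UMIs, immune cells at E15 had 1.20 (-0.44 to 3.23). Stromal cells, also under that number, had 0.10 (-0.91 to 1.13) at E15 and 2.15 (0.76 to 3.77) at E19, the last from 17 and 5 UMIs. For Hmga2 in columnar cells the ratio was 0.75 (0.57 to 0.95), 0.46 (0.34 to 0.58) and 0.92 (0.70 to 1.13), and for Igf2bp2 it was 0.25 (0.02 to 0.48), 0.20 (0.08 to 0.33) and 0.36 (0.20 to 0.52). For Igf2bp1 in stromal cells it was 0.43 (0.19 to 0.68) at E15 and 0.69 (0.42 to 0.97) at E19, while in E15 neural cells it was -0.002 (-0.42 to 0.41). Of 53 ratios with at least 50 UMIs, 4 were past a log2 ratio of 1. The share of all genes past it between phases is not given here, so this count has no background beside it. The call rests on cell cycle genes at unequal depths, and no cycling is read from it.

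Within a phase, the E15 over pup ratio in stomach columnar cells could be taken again. In G1 cells it was 2.67 (2.42 to 2.93) for Hmga2 and in S or G2M cells 2.46 (2.21 to 2.72). For Igf2bp1 it was 3.15 (2.73 to 3.57) and 2.29 (1.81 to 2.79), and for Igf2bp3 1.51 (1.19 to 1.83) and 1.05 (0.75 to 1.35). These genes stayed higher at E15 in both phases. For Hmga1 the ratio was 2.81 (1.84 to 3.74) in G1 and 0.96 (0.42 to 1.52) in S or G2M, and the intervals did not overlap.

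**Figure D5:**
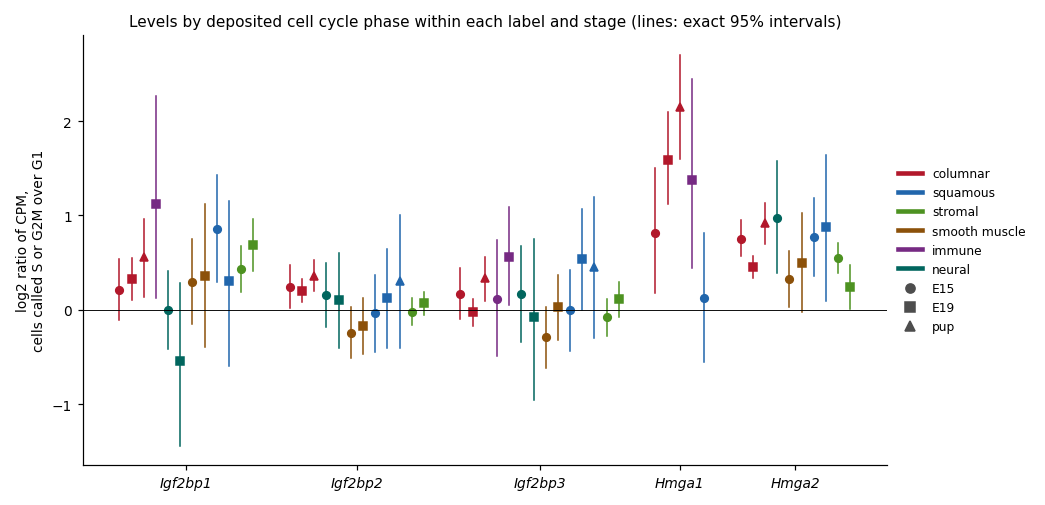
Log2 ratio of the level in S or G2M cells over that in G1 cells for each member by cell label and stage, from summed UMIs with exact 95% intervals for counting error. Only ratios from at least 50 UMIs are drawn. Columnar Hmga1 lies at 0.81, 1.59 and 2.15 from E15 to the pup, and squamous Hmga1, drawn at E15 alone, at 0.13 with an interval that spans 0.

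Genes of the same pathways, from lists drawn up by function, gave the setting in stomach columnar and stromal cells. Of the genes for let-7 processing (Drosha, Dgcr8, Xpo5, Dicer1, Ago2, the terminal uridylyl transferases and others), 6 of 9 with enough UMIs were past the threshold towards E15 in columnar cells beside 20.9% of all genes and 2 of 8 in stroma beside 11.3%, with median log2 ratios of 1.19 and 0.82. Trim71, a stem cell protein and itself a let-7 target, was at 36.0 CPM (E15) and 2.98 CPM (pup) in columnar cells, a log2 ratio of 3.56 (3.02 to 4.14). Tut4 had 1.99 (1.80 to 2.18) while its relative Tut7 had 0.04 (-0.13 to 0.21). These relatives, both of which can add uridines to let-7 precursors, differed in columnar cells and again in stroma, at 1.09 (0.66 to 1.55) and -0.48 (-0.87 to -0.06).

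Of the known let-7 targets outside the set, 8 of 20 were past the threshold towards E15 and 2 towards the pup in columnar cells, beside 20.9% and 9.32% of all genes, with a median of 0.80 against 0.38 for all genes. In stroma 2 of 16 were past it towards E15 and 1 towards the pup, beside 11.3% and 8.37% of all genes, with a median of -0.11 against 0.10. The stromal count was thus close to the background. Trim71 and Dicer1 stand both on this list and on that for let-7 processing. Both were past the threshold in columnar cells, so the columnar counts of these lists are not independent. Mycn, a growth-promoting transcription factor, had the largest ratio in columnar cells, at 4.18 (3.45 to 4.98), from 28.2 CPM (E15) and 1.49 CPM (pup). The insulin-family receptors Igf1r and Insr lay on the other side, at -1.01 (-1.17 to -0.85) and -1.03 (-1.36 to -0.71). In stroma Irs2, an adaptor of the insulin receptor, was at -1.02 (-1.44 to -0.59).

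Of the RNAs that IGF2BP proteins are known to bind, H19 and Igf2 were past the threshold in columnar cells, at 4.48 (4.40 to 4.55) and 3.85 (3.71 to 3.99), and Actb, Myc and Cd44 were not. In stroma the same 2 stood at -0.25 (-0.35 to -0.14) and 0.74 (0.52 to 0.97), and Cd44, a cell adhesion receptor, was higher in the pup at -2.07 (-2.54 to -1.58). Among the other high mobility group genes, 6 of 7 were past it towards E15 in columnar cells and 5 of 7 in stroma, beside 20.9% and 11.3% of all genes, with medians of 1.87 and 1.29. Hmgn2 had the largest columnar ratio, 2.46 (2.33 to 2.60), which is below the 3.07 (2.92 to 3.22) of Hmga2. The proliferation genes gave 10 of 10 and 9 of 10 beside the same shares, with medians of 2.19 and 1.98. In GE-SCJ squamous cells the median of the proliferation genes was 0.13. The members there ran from 0.57 (-0.20 to 1.37) for Hmga1 to 2.84 (2.01 to 3.78) for Hmga2. In GE-SCJ stroma the median was 2.87. Igf2bp3 and Igf2bp2 were at -0.03 (-0.57 to 0.55) and 0.19 (-0.22 to 0.63) there. Igf2bp1 and Hmga2 were at 2.00 (0.75 to 3.64) and 3.75 (2.39 to 5.63). The part of proliferation in the members' ratios was not tested beyond the values within phase.

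In squamous cells of the adult esophagus, the largest adult group, no member exceeded 10.6 CPM. In these 232 cells Hmga2 was at 4.05 CPM (2.16 to 6.93) and Igf2bp1 at 2.49 CPM (1.08 to 4.91). Igf2bp3 was at 6.85 CPM (4.296 to 10.4) and Igf2bp2 at 9.35 CPM (6.31 to 13.3). Hmga1 was at 10.6 CPM (7.34 to 14.8) there, which overlapped Igf2bp2. In adult GE-SCJ squamous cells Hmga1 was at 5.16 CPM (2.23 to 10.2), beside its median of 5.64 CPM over the 55 groups. Over all 478 adult cells the level of Hmga2, 21.3 (17.8 to 25.3) CPM, came largely from few cells. The 41 adult cells whose nearest neighbours, found without the members, were mostly prenatal had 142 (115 to 173) CPM, and the other 437 had 6.52 (4.57 to 9.03) CPM.

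For the other members the same split gave 56.2 (39.8 to 77.1) and 3.08 (1.79 to 4.93) CPM for Igf2bp1, 149 (122 to 182) and 16.7 (13.4 to 20.4) CPM for Igf2bp2, and 66.6 (48.5 to 89.1) and 8.70 (6.41 to 11.5) CPM for Igf2bp3. Hmga1 differed less, at 20.7 (11.3 to 34.7) and 8.34 (6.103 to 11.1) CPM, with intervals that just lay apart. Of the adult columnar cells 12 of 26 belonged to the first kind, against 4 of 318 squamous cells. The split therefore differs in cell type. Its cells were also picked for likeness to prenatal cells, so higher levels of fetal genes in the first kind are a description and no test. The 19 adult columnar cells of the GE-SCJ are under the minimum of 20 cells used elsewhere, and 8 of them belonged to the first kind and 11 did not. Among them the split gave 150.3 (106 to 206) and 57.6 (31.5 to 96.7) CPM for Hmga2. It gave 98.9 (64.0 to 146) and 28.8 (11.6 to 59.4) CPM for Igf2bp3 and 71.2 (42.2 to 113) and 20.6 (6.68 to 48.0) CPM for Igf2bp1. For Igf2bp2 the levels there were 170.1 (123 to 229) and 136 (93.5 to 191) CPM. The intervals overlapped for Igf2bp1 and Igf2bp2 and lay apart for Hmga2 and Igf2bp3. Whether a wrong tag has a part in these cells was not tested.

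Over 33 groups of at least 50 cells, the pattern of each member was set beside those of 13555 genes with at least 200 UMIs, by Pearson's r of log2(CPM + 10). The groups share 1 library and several share a cell type or a stage, so r is a description. The 5 genes most alike Igf2bp1 were Dhx9 (0.935), Cdk4 (0.917), Nelfcd (0.911), Ssbp1 (0.904), Ywhae (0.894). For Hmga2 they were Polr2j (0.825), Lsm6 (0.816), Mrpl50 (0.802), Smu1 (0.795), Thyn1 (0.794), and for Igf2bp2 Tmem9 (0.887), Stam (0.868), H1f0 (0.864), Nectin3 (0.859), Tceal9 (0.858). Genes alike Hmga1 included Pabpc1 (0.883), Rpl32 (0.882), Rps6 (0.863), Rplp2 (0.853). The 5 most alike Igf2bp3 were Evl (0.819), Tpr (0.79997), Mov10 (0.795), Rai1 (0.792), Zfp568 (0.791). With groups of at least 20 cells, 3 of the 25 genes most alike the 5 members remained, so these lists depend on the choice of groups. Among the members, r was highest between Igf2bp1 and Hmga2, at 0.786, and lowest between Igf2bp2 and Hmga1, at -0.264. Lin28b had too few UMIs for this comparison.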

How the data were processed

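Single cells of the mouse esophagus, GE-SCJ and stomach were tagged by region and stage, pooled and sequenced as 1 library with 3′ chemistry. The authors made UMI counts with Cell Ranger 6.1.1 on the 10x mouse reference (GRCm38), filtered barcodes on their genes, UMIs and mitochondrial share, a step that also served against doublets, and deposited the counts of 19550 genes without normalization. The percent of mitochondrial UMIs, the cell label, the tag and the cell cycle phase of each cell were computed by the authors and deposited with them. No further doublets were removed.

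Counts were summed over the cells of each label, region and stage and scaled to CPM. With 1 pooled sample per group no test was run, and intervals at 95% cover counting error. Groups below 20 cells were left out, except for the adult columnar cells of the GE-SCJ in the split by neighbours. Ratios were counted where both sums together held at least 50 UMIs, 1 UMI was added to each sum, and a 0 is given with the level of 3 counts. Neighbours were 15 cells in 30 principal components of 2000 variable genes without the members. Untranslated regions came from GENCODE M21 and microRNAs from RefSeq.

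The 6 genes were taken by name, and from each list the genes with the 3 largest and 3 smallest ratios of E15 over pup could be named. An item among the patterns alike Hmga1 is not reported here. The members, lists and comparisons were chosen with earlier results of these data known. The ratio was run on simulated data, where 198 to 200 of 200 changed genes passed the threshold in each of 3 contrasts. So did 20 of 10594 unchanged genes in stomach columnar cells, 183 of 8732 in stomach stroma and 46 of 6128 in GE-SCJ smooth muscle. The size of the change in those genes is not given here, and the spread between mice was not tested. No sensitivity in the real groups is therefore read from these counts. Alternatives changed the library size, the cells, the averaging, the thinning, the threshold and the pattern settings. The work used scanpy 1.11.5, scikit-learn 1.9.0, scipy 1.17.1, pandas 2.3.3, numpy 2.4.6 and matplotlib 3.10.9 under Python 3.11.15.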

Additional observations from a re-analysis of the deposited data

How the results depend on the processing

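Of 352 log2 ratios of E15 over pup recomputed under the 6 alternatives on cells, averaging and library size, 351 moved by less than their counting interval and 0 reversed; the exception was Igf2bp2 in stomach columnar cells, at 0.88 when CPM were averaged cell by cell, where the cause was not tested. The count of 28 ratios past the threshold ran from 26 to 30 under these alternatives. A log2 threshold of 2 left 17 in all, 9 in epithelium, where 14 were past 1, and 7 in stroma and smooth muscle, where 11 were, which follows from its construction. Under it Igf2bp1 kept a count of 5 and Igf2bp3 had 0. The share of all genes past a log2 ratio of 2 is not given here, so these counts have no background beside them. The count of 6 regional ratios was the same under its 4 alternatives. The genes most alike in pattern shared 18 of 25 with a pseudocount of 1 and 3 of 25 with groups of at least 20 cells, and the cause was not tested. No paired analysis was possible because each region and stage is 1 pooled sample. The alternative on tag assignment probability was not run, since no file used here gives it. Leaving out mitochondrial, ribosomal protein and hemoglobin genes dropped 118 genes with 24.4% of UMIs. Depth limits Lin28b, with 61 UMIs, most, and it limits the shallow pup stroma and smooth muscle, where a sum of 0 does not show that a gene is absent.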
